A study of Mus musculus with 18 samples.

Results

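Mutant and control epidermis were compared after inflammation with complete Freund's adjuvant (CFA), an oil emulsion of killed mycobacteria. Of the array's 35556 probe sets, the comparison used the 23410 to which the platform annotation assigns a gene or several, read on 6 of the study's 18 Affymetrix mouse gene arrays, 3 of CFA control and 3 of CFA mutant epidermis. Each value is the log2 signal of a probe set after RMA, so that 1 unit is a 2-fold difference. The control mice were K14Cre-Trpa1+/+, called WT in the labels, and the mutant mice were K14Cre-Trpa1fl/fl, in which Cre removes exons 22 to 24 of Trpa1, part of the channel's pore. Both genotypes thus carried Cre under the keratin 14 promoter, active in keratinocytes and skin glands. All were adult males of at least 7 weeks on a mixed background of C57BL/6, CBA and Swiss Webster, and the colonies had been bred separately for many generations, so that genotype and colony cannot be told apart. Glabrous hindpaw epidermis was peeled off with dispase 2 days after an injection of 50 µl of undiluted CFA. Naive epidermis and naive dorsal root ganglia (DRG), with 3 control and 3 mutant arrays each, served as arrays on which the CFA comparison did not draw. Vehicle-injected mice were not analysed here.

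Interferons are cytokines that cells release when they sense microbial nucleic acids and other danger signals. Their receptors activate STAT factors, which together with IRF9 bind a short element, the ISRE, in the promoters of interferon-stimulated genes. These genes encode antiviral proteins such as the Ifit, Oas and Mx families, guanylate-binding and immunity-related GTPases, and the chemokine Cxcl10, which attracts activated T cells. Keratinocytes, the main cells of the epidermis, respond to interferons, and the epidermis also houses antigen-presenting Langerhans cells and resident T cells. Skint genes encode membrane proteins of keratinocytes related to Skint1, which the dendritic epidermal T cells of the mouse need for their development.

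The 6 CFA arrays were alike in their overall readings, with medians of 5.44 to 5.48 and Pearson's r of 0.992 to 0.996 between replicates across probe sets. The median log2 difference between the genotypes was 0.01. A background level was set on each array from 1220 probe sets of odorant, trace-amine and vomeronasal receptors, as their 95th percentile, and lay at 4.70 to 4.79, with 67.6% to 69.0% of probe sets above it. The keratinocyte genes Krt5 and Krt10 read 12.64 to 12.77 and 13.24 to 13.45. Trpa1 itself was below background on each array, at 3.79 to 3.89 in control and 3.68 to 3.93 in mutant epidermis, so that it could not check the genotype in this tissue. In DRG it read 8.99, 8.89 and 9.08 on the control and 8.84, 8.44 and 8.54 on the mutant arrays. Krt14, whose promoter drives Cre, had a log2 difference of 0.01 after CFA (limma, adjusted p = 0.99).

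After CFA, 19 probe sets rose in mutant epidermis and 23 fell at an adjusted p under 0.05 (limma), 0.0812% and 0.0982% of those tested. These 42 probe sets, 0.179% of all, are termed called below. The groups did not overlap in any of them, while they did not overlap in 14.3% of all probe sets. Of the 42, 25 (0.107%) had a measured difference of at least 2-fold, 10 up and 15 down. For Skint9 and Zfp979, among the 15, the mutant arrays were below background and the difference is only shown to be at least 1.61-fold and 1.55-fold. Before adjustment, a p under 0.05 was reached by 1183 higher (5.05%) and 915 lower (3.91%) probe sets. Genes are counted as higher or lower before adjustment below at that p, to be read beside these shares of all probe sets. The larger differences lay on the lower side, where 103 (0.44%) were at least 2-fold lower as measured at that p, against 23 (0.0982%) at least 2-fold higher. The called probe sets stand for 38 named genes, 23 lower and 15 higher, and for 3 probe sets that are each paired with several genes and are not named. These 3 are paired with the same genes and read alike, so they are not 3 separate results. The count of 42 changed in both directions when single arrays were left out. It came to 16 when control replicate 1 was left out and to 15 for mutant replicate 2, but to 104 for control replicate 3 and to 146 for mutant replicate 3. Of the 42, 11 kept their call whichever of the 6 arrays was left out, namely Zfp979, Skint9, Skint10, Casp4, AI506816, Slc6a20a, Akr1e1, Adh7 and the 3 unnamed probe sets. A test of the same values without moderated variances gave 0 calls, with 1776 probe sets at an unadjusted p under 0.05.

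**Figure D1:**
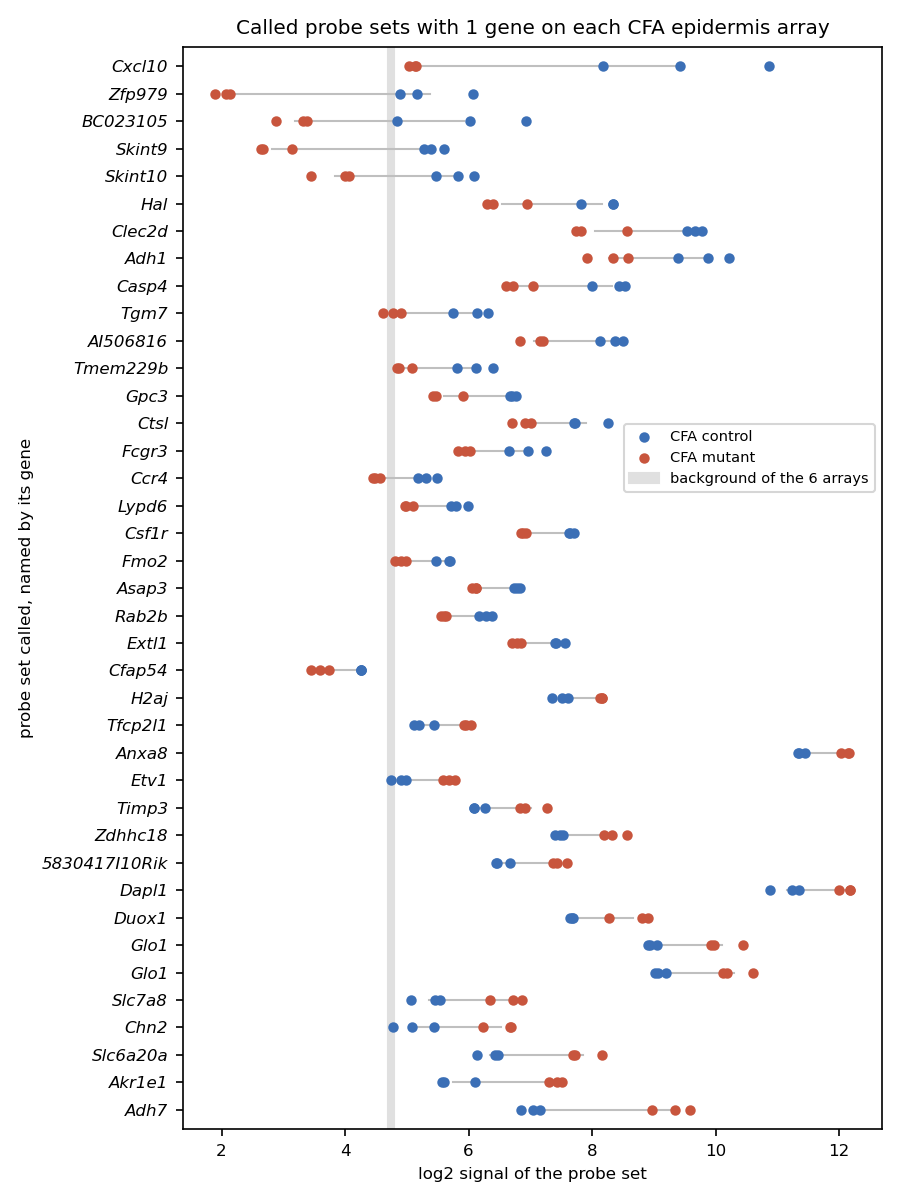
Log2 signal of each called probe set with exactly 1 gene on the 3 CFA control and 3 CFA mutant arrays, with lines joining the group means and the background of the 6 arrays as a grey band. Cxcl10 has the widest gap and a wide spread among controls, and in 6 of the genes that fell all mutant arrays lie below background.

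Cxcl10 had the largest difference of the called genes. It read 9.42, 10.86 and 8.17 on the control arrays and 5.14, 5.03 and 5.15 on the mutant arrays. The controls were high and spread widely, whereas the mutants lay close together and little above the naive readings of 4.29 to 4.65. The difference was 20.8-fold (log2 difference -4.38, standard error 0.51, limma adjusted p = 0.013). The call was lost without control replicate 1 or mutant replicate 2, with log2 differences of -4.41 and -4.34. Among 9 chemokines that attract T cells, Cxcl10 was the only call. Cxcl9, which binds the same receptor, read 8.78, 9.36 and 6.46 in control and 6.04, 7.07 and 6.63 in mutant epidermis. Control replicate 3 lay among the mutants, and the log2 difference of -1.62 had an adjusted p of 0.46. Of 15 chemokines for neutrophils and monocytes 0 were called by limma, with 4 lower and 1 higher before adjustment. Ccl7 and Ccl2, which attract monocytes, had log2 differences of -0.83 and -0.54 (adjusted p = 0.14 and 0.22), and Cxcl14, made by keratinocytes, had one of 1.22 (adjusted p = 0.18).

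The listed interferon-stimulated genes lay lower in mutant epidermis as a group, although limma called 0 of them. Cxcl10, also induced by interferon, was counted with the chemokines and not in this list, and it was called (limma, adjusted p = 0.013). Of 41 measured, 36 were lower at an unadjusted p under 0.05 (20 without moderated variances) and 0 were higher, beside 3.91% lower over all probe sets, and the groups did not overlap in 36, all lower, beside 5.6% of all. The median log2 difference of the list was -1.43, or -1.25 with each array value below background set to the background, beside 0.01 over all probe sets. On all 3 control arrays 36 of the 41 were above background. The remaining 5, Ifi205, Oas3, Isg20, Epsti1 and Ifi27, of which those outside the naming rule were chosen after their values were seen, had log2 differences of -0.91, -0.69, -0.46, -0.21 and 0.00. The study describes a weaker interferon signature in these same samples, so the direction of the list is not independent evidence.

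Ifit1, which binds foreign RNA, had the largest difference in the list. It read 8.82, 10.03 and 7.67 in control and 6.15, 4.69 and 3.84 in mutant epidermis, against 3.22 to 3.59 on the naive arrays. The groups did not overlap, and the measured difference was 15.4-fold (log2 difference -3.95, adjusted p = 0.057), with 2 of the 3 mutant arrays below background. Ifit3, of the same family, read 6.87, 8.31 and 5.53 against 3.66, 3.75 and 3.82. All mutant arrays were below background, and the difference was at least 4.47-fold (adjusted p = 0.066), taking the background as the mutant level. Usp18, which removes the ISG15 tag and dampens interferon signalling, read 7.89, 8.89 and 7.28 against 6.50, 5.42 and 4.92 (log2 difference -2.41, adjusted p = 0.085). Slfn8, a Schlafen gene, read 5.62, 6.38 and 5.19 against 4.35, 4.24 and 4.46 and was at least 1.98-fold lower (adjusted p = 0.083). In all 4 genes control replicate 2 was the highest array and control replicate 3 the lowest of the controls.

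That order of the controls held in most of the list. Control replicate 2 was the highest of the 6 arrays in 39 of 41 genes, and control replicate 3 the lowest of the controls in 38. The mean of the list was 7.01, 8.04 and 6.48 on the control arrays and 5.97, 5.69 and 5.52 on the mutant arrays, against 4.99 to 5.11 on the naive arrays. Mutant epidermis thus also read above naive epidermis. Over the 41 genes, 34, 32 and 24 lay above every naive array on mutant replicates 1, 2 and 3, and 40, 41 and 40 on the control replicates. Without control replicate 2 the median log2 difference was -0.995, with 35 genes lower at an unadjusted p under 0.05 and 7 called. Without control replicate 3 it was -1.68, with 39 lower and 16 called. In bulk epidermis, fewer cells of a type and less RNA per cell cannot be told apart.

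**Figure D2:**
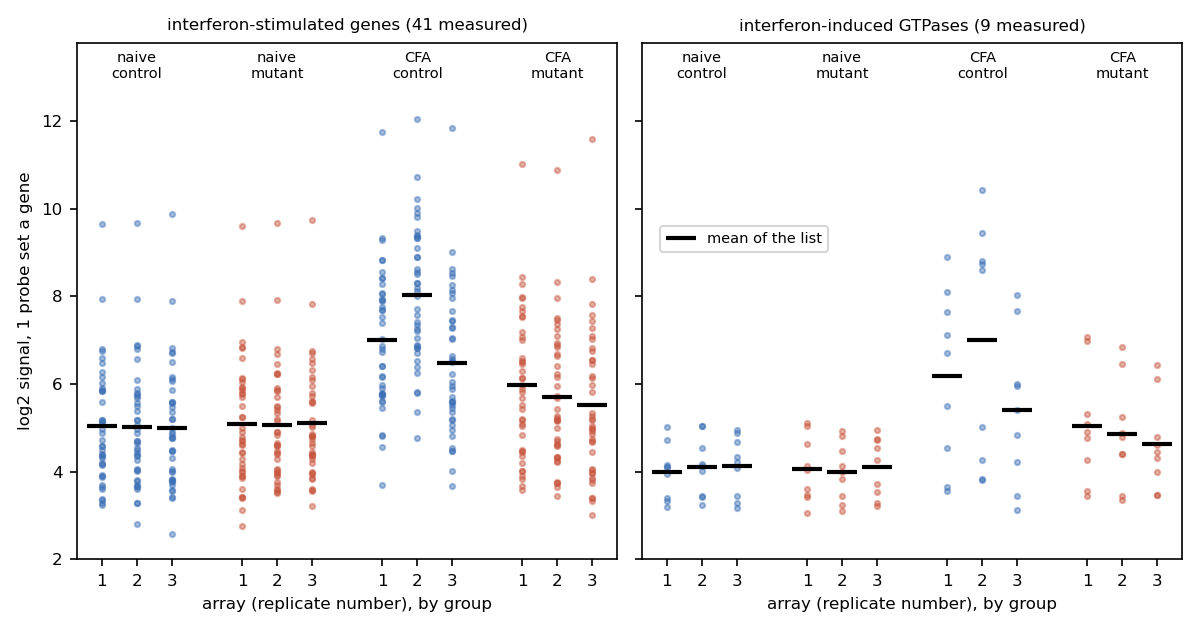
Log2 signal of each measured interferon-stimulated gene and interferon-induced GTPase (points) on the 12 epidermis arrays, by group and replicate number, with the mean of the list on each array as a black bar. The naive means are alike, the CFA means are raised, and the 3 CFA control means lie above the 3 CFA mutant means in both lists, with control replicate 2 the highest.

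The interferon-induced GTPases, which attack the membranes around microbes inside cells, had a median log2 difference of -1.86 over 9 measured genes. Limma called 0 of them. At an unadjusted p under 0.05, 5 were lower, beside 3.91% of all probe sets. The groups did not overlap in these 5, beside 5.6% of all probe sets that were lower without overlap. Gbp7 read 8.90, 10.43 and 8.02 in control and 6.99, 6.84 and 6.43 in mutant epidermis, a 5.16-fold difference (adjusted p = 0.11). Irgm1 read 8.11, 9.45 and 7.67 against 7.08, 6.46 and 6.12 (log2 difference -1.86, adjusted p = 0.15). Control replicate 2 was again the highest array in both. Gbp2b and Iigp1 had measured differences of 5.24-fold and 7.21-fold (adjusted p = 0.19 for both), with 1 and 2 of the 3 mutant arrays below background. Gbp4, Gbp5 and Gbp8, named after their values were seen, were below background on all 6 arrays. Members of both lists made up 32 of the 103 probe sets that were at least 2-fold lower at an unadjusted p under 0.05. Of their 50 members, 41 were lower with groups that did not overlap, beside 5.6% of all probe sets. The genes of these lists varied together across the arrays, so the counts are not of independent observations.

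The promoters of these genes were searched for the core of the ISRE, GAAA, any 2 bases and GAAA, on both strands. The windows, from RefSeq on GRCm38.p6, run from 250 bases before to 50 after the transcription start. Of 27025 genes with a window, 3.99% held a match. Of 30 interferon-stimulated genes with a window, 15 (50%) held one, as did 5 of 5 GTPases. Such genes respond to interferon through the ISRE, so a high share was fixed by the choice of these lists. It is not evidence on the genotypes. Among the called genes that fell, 3 of 20 with a window (15%) held one, namely Cxcl10, Clec2d and Extl1, and among those that rose 0 of 14 did. The letters TTCNNNGAA of the GAS element, which binds STAT dimers, were in 9.55% of all windows, in 23.3% of those of the interferon-stimulated genes and in 15% of those of the called genes that fell. A match is a run of letters and not a measured site, and a window without one only lacks these letters. The windows of Cxcl10, at chr5:92348840-92349139 on the minus strand, and of Clec2d, at chr6:129180365-129180664 on the plus strand, are shown as those of the matching called genes that fell most. Those of Ifit1, at chr19:34640639-34640938, Ifit3, at chr19:34583279-34583578, and Gbp7, at chr3:142530086-142530385, all on the plus strand, stand for the lists. They are written 5′ to 3′ on the strand of the gene, with ISRE core matches of either strand in capitals.
Cxcl10: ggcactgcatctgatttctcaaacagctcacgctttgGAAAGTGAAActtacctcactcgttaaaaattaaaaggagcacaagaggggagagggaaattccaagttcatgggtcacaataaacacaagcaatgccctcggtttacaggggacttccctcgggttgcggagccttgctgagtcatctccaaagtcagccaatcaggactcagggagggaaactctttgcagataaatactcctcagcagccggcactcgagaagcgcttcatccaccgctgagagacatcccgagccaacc
Clec2d: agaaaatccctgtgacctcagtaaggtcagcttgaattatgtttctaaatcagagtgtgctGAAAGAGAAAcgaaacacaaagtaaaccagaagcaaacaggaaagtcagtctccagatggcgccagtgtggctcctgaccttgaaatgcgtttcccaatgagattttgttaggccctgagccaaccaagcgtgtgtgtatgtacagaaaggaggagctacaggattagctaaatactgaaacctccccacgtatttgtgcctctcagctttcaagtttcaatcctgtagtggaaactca
Ifit1: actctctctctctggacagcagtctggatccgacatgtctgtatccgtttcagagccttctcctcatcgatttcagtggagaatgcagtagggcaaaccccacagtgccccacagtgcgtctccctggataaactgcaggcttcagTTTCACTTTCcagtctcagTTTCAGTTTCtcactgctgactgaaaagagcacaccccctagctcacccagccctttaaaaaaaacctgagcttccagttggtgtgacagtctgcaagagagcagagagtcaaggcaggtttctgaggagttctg
Ifit3: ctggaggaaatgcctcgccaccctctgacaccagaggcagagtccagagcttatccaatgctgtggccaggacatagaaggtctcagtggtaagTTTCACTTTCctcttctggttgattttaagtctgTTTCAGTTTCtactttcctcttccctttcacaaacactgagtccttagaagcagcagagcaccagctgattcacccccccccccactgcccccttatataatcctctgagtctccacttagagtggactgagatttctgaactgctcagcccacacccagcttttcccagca
Gbp7: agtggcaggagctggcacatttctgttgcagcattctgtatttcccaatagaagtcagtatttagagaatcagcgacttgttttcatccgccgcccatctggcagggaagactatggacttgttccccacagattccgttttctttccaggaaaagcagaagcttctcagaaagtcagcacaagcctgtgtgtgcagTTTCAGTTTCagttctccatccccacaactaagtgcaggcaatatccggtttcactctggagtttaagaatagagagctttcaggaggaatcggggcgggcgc
The windows of Ifit1 and Ifit3 each hold a pair of matches and the other 3 hold 1 each. The match ends 203 bases before the start in Cxcl10, 179 before it in Clec2d and 43 before it in Gbp7, and none overlaps a GAS match.

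Genes that carry the interferon signal differed in part. Of 28 measured genes for interferon signalling and nucleic acid sensing, limma called 0, and the median log2 difference was -0.15. At an unadjusted p under 0.05, 7 of the 28 were lower, beside 3.91% of all probe sets. Irf7, the factor that amplifies interferon production, read 8.03, 9.11 and 7.30 in control and 6.43, 5.85 and 5.47 in mutant epidermis (log2 difference -2.23, adjusted p = 0.083). Stat2, Irf1 and Irf9 had log2 differences of -1.39, -1.07 and -0.78 (adjusted p = 0.26, 0.11 and 0.26). In each of these 4 genes no mutant array reached the lowest control array, as in 5.6% of all probe sets. Sting1, an adaptor in the sensing of cytosolic DNA that is named after its values were seen, read 9.03, 9.06 and 9.02 in control and 6.35, 6.36 and 9.11 in mutant epidermis. Mutant replicate 3 thus read like the controls, and the adjusted p was 0.40. Without that array Sting1 was called, with a log2 difference of -2.69. Its naive mean was 4.69 in both genotypes.

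Of 8 measured genes for class II antigen presentation, 6 were lower at an unadjusted p under 0.05, beside 3.91% of all probe sets. The median was -0.35, and limma called 0. H2-Eb1, a class II chain, read 8.15, 8.45 and 8.28 in control and 5.87, 7.04 and 7.05 in mutant epidermis (log2 difference -1.64, adjusted p = 0.066). H2-Ab1, another chain, read 9.38, 9.31 and 9.48 against 8.75, 8.89 and 8.83 (log2 difference -0.57, adjusted p = 0.065). The groups did not overlap in either, beside 5.6% of all probe sets that were lower without overlap. In naive epidermis H2-Eb1 had a log2 difference of -0.85 and H2-Ab1 one of 0.05. In the class I list, 5 of 14 genes were lower at an unadjusted p under 0.05, beside the same 3.91%. Limma called 0, and the median was -0.25. Tap1, which carries peptides to class I molecules, had a log2 difference of -0.62 (adjusted p = 0.42).

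Myeloid genes held 2 calls. Csf1r, the receptor for CSF1 and interleukin-34, fell from 7.63, 7.65 and 7.71 in control to 6.92, 6.88 and 6.85 in mutant epidermis (log2 difference -0.78, standard error 0.09, adjusted p = 0.01). Fcgr3, an activating receptor for IgG, fell from 6.96, 7.25 and 6.66 to 6.03, 5.84 and 5.95 (log2 difference -1.02, standard error 0.14, adjusted p = 0.031). Replicates lay close together in Csf1r and further apart in Fcgr3. Csf1r lost its call without mutant replicate 2, and Fcgr3 without control replicate 1 or mutant replicate 1 or 2. Both genes are used by macrophages and by Langerhans cells. Of 24 measured macrophage and monocyte genes, with a median of -0.15, 7 were lower and 0 higher before adjustment. Over all probe sets the shares were 3.91% lower and 5.05% higher. Only 11 of the 24 were above background on all control arrays. The macrophage markers Cd68 and Fcgr1, named from the marker list, had log2 differences of 0.07 and -0.09, and Adgre1 was below background on all 6 arrays. Csf1, the ligand, read 7.04, 7.42 and 7.26 against 6.34, 6.37 and 6.75 (log2 difference -0.75, adjusted p = 0.091).

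Of 13 Langerhans cell genes, 4 were lower and 1 higher before adjustment, beside 3.91% and 5.05% of all probe sets. Limma called 0, and the median was -0.20. Cd207, the langerin that marks these cells, read 6.91, 6.93 and 6.62 in control and 6.29, 6.15 and 5.91 in mutant epidermis, without overlap (log2 difference -0.70, adjusted p = 0.087). Epcam, another of their markers, differed by -0.05. The mean of the list was 7.14 to 7.21 on the control and 6.92 to 6.97 on the mutant arrays. Lists for other cells that the peel could hold differed less. Medians were 0.02 for 17 neutrophil genes, -0.04 for 17 dermal fibroblast genes, -0.07 for 14 endothelial genes, 0.00 for 16 muscle genes and -0.01 for 9 mast cell genes. Of these, 6 neutrophil, 13 fibroblast, 7 endothelial, 11 muscle and 2 mast cell genes were above background on all 3 control arrays. The median of a list with many genes below background says little about the cells. The neutrophil markers Ly6g, Retnlg and Mmp8 and the endothelial markers Pecam1 and Cdh5 were below background on all 6 arrays. Of T cell markers, Cd3e read 5.89 to 6.05 in control and 5.79 to 6.27 in mutant epidermis, while Cd3d, Cd3g and Cd2 were below background. The part of any cell type in the differences described here was not tested.

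Casp4 encodes caspase-11, a sensor of intracellular lipopolysaccharide. It fell from 8.005, 8.53 and 8.44 in control to 7.05, 6.73 and 6.61 in mutant epidermis, without overlap (2.89-fold, standard error of the log2 difference 0.16, adjusted p = 0.007). Its naive log2 difference was -0.65 (adjusted p = 0.47). Of 19 interleukin-1 family and inflammatory caspase genes it was the only call, with 5 lower and 2 higher before adjustment. Il18, an interleukin-1 family cytokine, and Casp12 had log2 differences of -0.48 and -0.62 (adjusted p = 0.25 and 0.34).

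Clec2d, a ligand of inhibitory receptors of natural killer cells, fell 3.07-fold. It read 9.54, 9.78 and 9.67 in control and 7.82, 7.75 and 8.57 in mutant epidermis (log2 difference -1.62, standard error 0.20, adjusted p = 0.015). In naive epidermis it read 6.18, 6.59 and 6.50 in control and 7.10, 6.65 and 6.85 in mutant. The mutants were there the higher group, by a log2 difference of 0.44 that was not called (limma, adjusted p = 0.47). The call was lost without control replicate 1, mutant replicate 1 or mutant replicate 2, with log2 differences of -1.68, -1.50 and -1.47. Clec2d was the only call among 22 epidermal lymphocyte genes, whose median was 0.03. Ccr4, a chemokine receptor of skin-homing T cells, fell from 5.19, 5.49 and 5.32 to 4.56, 4.48 and 4.45. All its mutant arrays were below background, and the fall was at least 1.5-fold (adjusted p = 0.015).

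The Skint family had a median log2 difference of -1.96 over 7 measured members. With each array value below background set to the background it was -0.68, closer to 0 than the -1.86 of the GTPases and the -1.25 of the interferon-stimulated genes. Without mutant replicate 2 the median as measured was -1.50. Skint9 read 5.28, 5.40 and 5.60 in control and 3.15, 2.67 and 2.64 in mutant epidermis and was at least 1.61-fold lower (adjusted p = 0.00033). Skint10 read 5.47, 5.83 and 6.08 against 4.0002, 3.45 and 4.07 and was at least 2.07-fold lower (adjusted p = 0.005). Both were below background on all mutant arrays, and in RefSeq they lie near each other with 1 protein-coding gene between them. Skint4 read 7.32, 7.58 and 7.61 against 5.74, 3.88 and 5.67 (adjusted p = 0.071), and Skint3 read 7.43, 7.74 and 7.88 against 6.42, 2.79 and 5.96 (adjusted p = 0.29). Mutant replicate 2 was far below the other mutants in both. Without it both were called, with log2 differences of -1.79 and -1.50, and Skint4 was also called without mutant replicate 3, with -2.69. In naive epidermis Skint9 and Skint10 had log2 differences of -0.98 and -0.71 (adjusted p = 0.42 and 0.23). Genes of this family are alike in sequence, and whether their probes share signal was not tested.

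Zfp979, a zinc finger gene, and BC023105 also fell to below background. Zfp979 read 4.88, 6.07 and 5.17 in control and 2.13, 2.08 and 1.89 in mutant epidermis, at least 1.55-fold lower (adjusted p = 0.0007). In naive epidermis it read 5.57, 5.13 and 2.43 in control and 2.22, 2.15 and 2.84 in mutant, with the third control among the mutants. BC023105 read 6.02, 6.94 and 4.84 against 3.32, 3.39 and 2.89 after CFA, at least 2.28-fold lower (adjusted p = 0.045). It was 2.30 to 2.65 on all naive arrays. Its call was lost without control replicate 1 or any 1 of the 3 mutant arrays.

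Hal and Tgm7 fell after CFA. Hal, the histidase that turns histidine into urocanic acid, fell from 8.34, 8.34 and 7.82 to 6.95, 6.29 and 6.39 (3.08-fold, adjusted p = 0.014). Tgm7, a transglutaminase, fell from 6.31, 6.14 and 5.75 to 4.78, 4.62 and 4.90 (2.46-fold as measured, adjusted p = 0.011). Its mutant replicate 2 was below the background of 4.75 on that array, and the other mutants lay little above theirs. The groups did not overlap in either gene, and both calls were lost without control replicate 1 or mutant replicate 2. The late cornified envelope genes, a family looked at after its values were seen, had a median of -0.89, with 11 of 19 lower and 0 higher before adjustment and 0 called. Lce6a read 7.71, 7.60 and 6.89 against 6.39, 6.25 and 6.13 (adjusted p = 0.066). Control replicate 3 lay nearest the mutants. The mean of the family was 6.71 to 7.38 in CFA control and 6.31 to 6.53 in CFA mutant epidermis, and 10.1 to 10.2 on the naive arrays. Krt9, the keratin of palms and soles, read 11.58, 10.34 and 10.20 in control and 11.93, 12.02 and 11.74 in mutant epidermis (log2 difference 1.19, adjusted p = 0.23). Over 25 differentiated keratinocyte genes, 4 were lower and 4 higher before adjustment, with a median of 0.09. Over 14 basal keratinocyte genes, 1 was lower and 4 were higher, and over 21 barrier lipid enzymes 0 were lower and 1 was higher.

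Alcohol dehydrogenases, which oxidise retinol and other alcohols, held a call in each direction. Adh7 read 7.05, 7.16 and 6.86 in control and 9.58, 9.35 and 8.97 in mutant epidermis, 4.85-fold higher (log2 difference 2.28, standard error 0.15, adjusted p = 0.0007). The naive means were 9.33 and 9.70, so that the CFA controls stood below all other epidermis arrays. Adh1 read 9.88, 10.22 and 9.39 against 8.58, 8.34 and 7.93, 2.93-fold lower (log2 difference -1.55, adjusted p = 0.028). It was lower in naive mutant epidermis too, by a log2 difference of -1.45 (adjusted p = 0.032). Adh1 and Adh7 are neighbours in RefSeq, with 0 protein-coding genes between them. Adh6a and Adh6b had log2 differences of -0.76 and -0.72 after CFA (adjusted p = 0.091 and 0.25) and of -2.42 and -1.44 in naive epidermis (adjusted p = 0.15 and 0.12). Of 25 retinoid genes 0 were called and 5 were higher at an unadjusted p under 0.05, among them Rarg, a retinoic acid receptor, by 0.34 (adjusted p = 0.29).

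**Figure D3:**
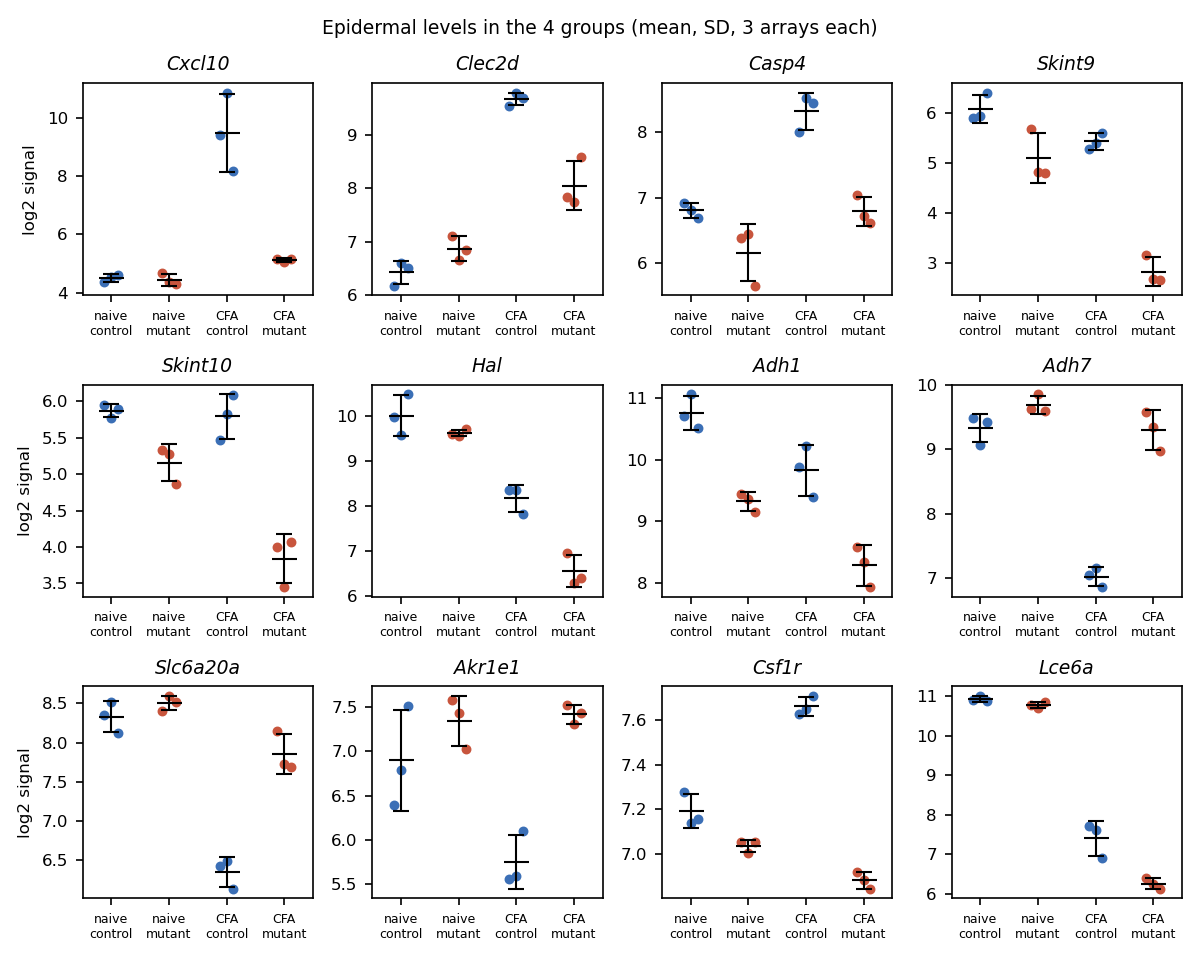
Log2 signal of 12 genes in the 4 epidermis groups, with a point per array, the mean and the SD (n = 3), each panel on its own axis. Cxcl10 is high in CFA control epidermis alone, Adh7 and Slc6a20a are lowest there, and Adh1 is lower in the mutants in both states.

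Enzymes and transporters of small molecules were among the genes that rose. Akr1e1, an aldo-keto reductase, rose from 5.56, 5.60 and 6.11 to 7.52, 7.31 and 7.44 (3.17-fold, adjusted p = 0.0025) and was the only call of 15 aldo-keto reductases. Glo1, the glyoxalase that clears methylglyoxal, rose with both of its probe sets, by 2.20-fold and 2.32-fold (adjusted p = 0.015 and 0.01). Slc6a20a, a proline transporter, rose from 6.42, 6.48 and 6.13 to 8.15, 7.73 and 7.68 (2.85-fold, adjusted p = 0.005). In these genes every mutant array was above every control array, and both calls of Glo1 were lost without control replicate 1. Slc7a8, an exchanger of neutral amino acids, rose 2.44-fold (adjusted p = 0.015). Of 19 amino acid and peptide transporters, 7 were higher and 1 lower before adjustment, with a median of 0.15. Slc15a2, a peptide transporter, read 4.35, 4.73 and 6.19 in control and 6.89, 8.34 and 6.47 in mutant epidermis (adjusted p = 0.20), with control replicate 3 close to mutant replicate 3. Gsta4, a glutathione transferase, read 5.96, 6.21 and 6.00 against 6.88, 7.50 and 6.87 (adjusted p = 0.064).

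Other called genes belonged to no list described above. Among those that rose were Chn2, a chimaerin that inhibits Rac (2.69-fold), Duox1, which makes hydrogen peroxide (1.99-fold), Dapl1 (1.95-fold) and 5830417I10Rik (1.92-fold). Others were Zdhhc18, a palmitoyltransferase (1.86-fold), Timp3, an inhibitor of metalloproteinases (1.81-fold), the transcription factors Etv1 (1.75-fold) and Tfcp2l1 (1.65-fold), the annexin Anxa8 (1.66-fold) and the histone gene H2aj (1.58-fold). Among those that fell were AI506816 (2.41-fold), Tmem229b (2.26-fold), the heparan sulphate proteoglycan Gpc3 (2.15-fold) and the lysosomal protease Ctsl (2.03-fold). Lypd6, Fmo2, Asap3, Rab2b and Extl1 fell by 1.59-fold to 1.76-fold. Cfap54 was below background on all 6 arrays, so that no fold is given, and its call was lost whichever array was left out. The 3 unnamed probe sets rose by 2.61-fold to 2.65-fold (adjusted p = 0.0007).

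In naive epidermis, on arrays that played no part in the calls, 35 of the 42 called probe sets differed in the same direction (83.3%), beside 52% of all probe sets. The 35 include the 3 unnamed probe sets, which share their genes, and both of Glo1, so they are not 35 separate genes. Over the 126 probe sets that were at least 2-fold different at an unadjusted p under 0.05 the share was 60.3%, and over the 103 lower ones among them 56.3%. The median size of the called ones was 0.24 on the log2 scale, against 1.16 after CFA. At an unadjusted p under 0.05, which 8.94% of all probe sets had, 11 differed in the same direction and 1, Clec2d, in the opposite one. Adh1 was the only one called, beside 0.0299% of all. Lypd6 had a log2 difference of -0.80 in naive and -0.81 in CFA epidermis.

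**Figure D4:**
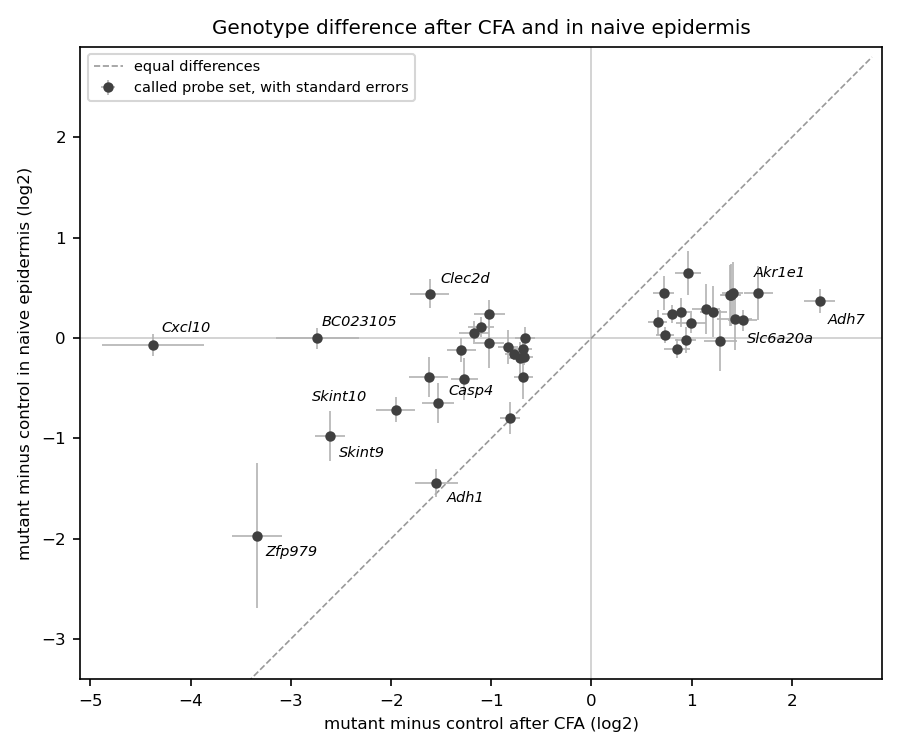
Log2 difference between mutant and control after CFA (horizontal) and in naive epidermis (vertical) for the 42 called probe sets, with standard errors and a dashed line of equal differences. Most points lie nearer 0 on the vertical axis than on the horizontal, Adh1 and Lypd6 lie close to the line, and Clec2d has differences of opposite sign.

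Whether the genotype difference after CFA differed from that in naive epidermis was tested over the 12 epidermis arrays, and 6 probe sets were called (0.0256%). The difference of differences was -4.31 for Cxcl10 (adjusted p = 0.045), -2.06 for Clec2d (adjusted p = 0.031), -1.21 for Gpc3 (adjusted p = 0.045), 1.91 for Adh7 (adjusted p = 0.0075) and 1.34 for Slc6a20a (adjusted p = 0.045). These 5 were also called after CFA. Gpc3 read 6.76, 6.67 and 6.70 in CFA control and 5.48, 5.43 and 5.92 in CFA mutant epidermis, and 5.71 to 6.05 on the naive arrays. The other was Nr4a1, an immediate-early gene, with 2.31 (adjusted p = 0.0075). It read 8.94, 8.54 and 8.85 in naive control and 6.19, 6.71 and 6.91 in naive mutant epidermis. After CFA it read 5.18, 5.12 and 5.59 against 5.42, 5.53 and 5.36, so that its groups were apart in naive epidermis and overlapped after CFA. Of 34 immediate-early genes, 17 were lower and 2 higher in naive mutant epidermis at an unadjusted p under 0.05 (limma). Over all probe sets, 8.94% had that p in naive epidermis in either direction. After CFA, 3 of the 34 were lower and 3 higher. The 6 calls over the 12 arrays became 2 to 4 without any 1 of 9 arrays and 8 without naive control replicate 1. They became 87 without CFA control replicate 3 and 76 without CFA mutant replicate 3. Of the 41 interferon-stimulated genes 0 were called, and 38 had an unadjusted p under 0.05 in the lower direction, beside 3.68% of all probe sets.

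In DRG, 28 of the 42 called probe sets differed in the same direction as after CFA (66.7%), beside 53.6% of all probe sets, and 77.8% over the same 126 probe sets. Of the 19 that rose 16 did so, and of the 23 that fell 12. The 16 include the 3 unnamed probe sets, which share their genes, and both of Glo1. Krt10, a gene of the outer epidermis named after its values were seen, read 7.42 on DRG control replicate 3 and 8.20 on DRG mutant replicate 1, and 6.39 to 6.73 on the other 4. Without these 2 arrays, left out after their values were seen, 54.8% of the called probe sets differed in the same direction. The 53.6% is from all DRG arrays, with no counterpart for the reduced set, so the 54.8% cannot be set against it. The cause was not tested. AI506816 and both probe sets of Glo1 were also called in DRG, where 0.0726% of all were. AI506816 read 6.79, 6.90 and 6.87 in control and 4.67, 5.32 and 4.19 in mutant DRG, the latter below the DRG background of 5.77 to 5.92. The second probe set of Glo1 read 9.98, 10.05 and 10.003 against 10.80, 10.76 and 10.79 (log2 difference 0.77, adjusted p = 0.0038). Ctsl, which fell after CFA, had a DRG log2 difference of 0.28 (adjusted p = 0.62).

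Gene groups that concern sensation held 0 calls by limma. Of 26 ion channel, connexin and nucleotide receptor genes, 4 were higher and 3 lower before adjustment, and the median was 0.00. Gjb2 and Gjb6, which form gap junctions between keratinocytes, had log2 differences of 0.67 and 0.51 (adjusted p = 0.11 and 0.21). Of 13 nerve growth factor and pain mediator genes, 2 were higher and 1 lower. The lower one, Penk, the precursor of enkephalins, read 5.14, 5.71 and 5.68 in control and 4.89, 4.58 and 4.80 in mutant epidermis (adjusted p = 0.13). Hpgd, which breaks prostaglandins down, read 10.09, 10.29 and 10.54 against 8.96, 8.32 and 9.79 (adjusted p = 0.19). Its groups did not overlap, and 3 of 21 prostaglandin genes were lower at an unadjusted p under 0.05. Among 22 wound keratins and alarm genes, Sprr2d read 8.05, 7.98 and 9.79 against 6.31, 6.11 and 7.30 (adjusted p = 0.17), and 3 genes were lower and 3 higher. Of 22 cell cycle genes 0 were called and 0 had an unadjusted p under 0.05.

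**Figure D5:**
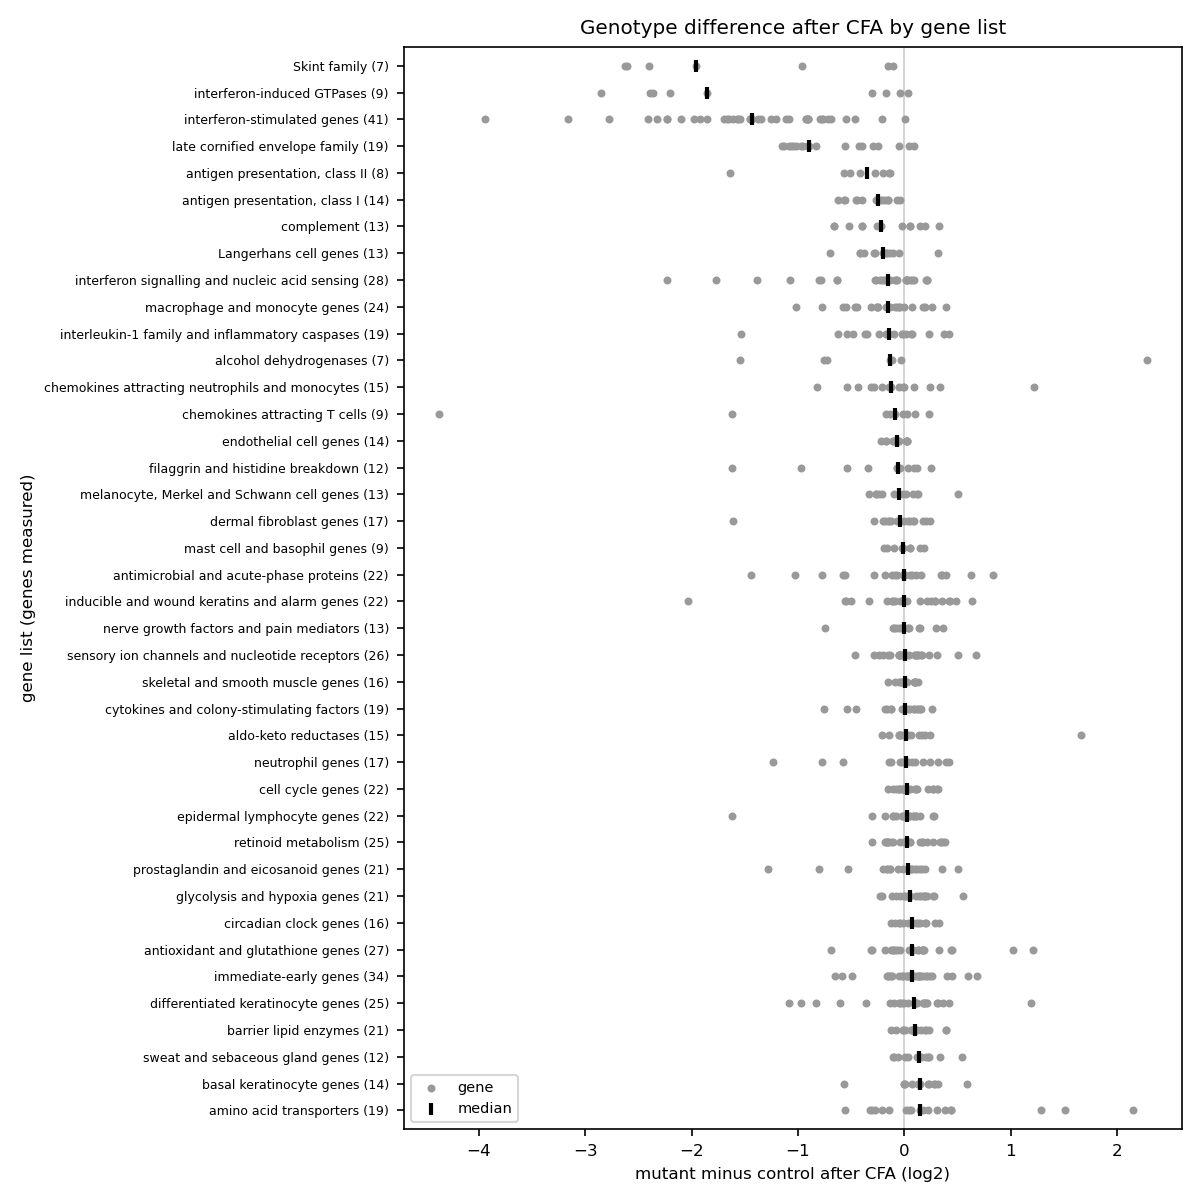
Log2 difference between mutant and control after CFA for every measured gene (grey points) of each list with at least 5 genes measured, with the median as a bar. The Skint, GTPase and interferon-stimulated lists have medians of -1.96 (-0.68 with array values below background set to it), -1.86 and -1.43, and most other medians lie close to 0.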

How the data were processed

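RNA of peeled hindpaw epidermis and of lumbar DRG was labelled (100 ng) and hybridised to Affymetrix mouse gene arrays. The authors normalized the scans with RMA in Partek software and deposited log2 values per probe set, 35556 in all with 0 missing values. The number of arrays limits the precision. The platform's table names 1 gene for 21789 probe sets, several for 1621 and none for 12146. Samples were grouped by their labels, with 3 arrays per group.

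Differences, mutant minus control, were fitted to the deposited values with limma 3.58.1 (lmFit, eBayes) in R 4.3.3, two-sided, with Benjamini-Hochberg adjustment over 23410 probe sets and calls at an adjusted p under 0.05. A probe set below the 95th percentile of receptor probe sets on all arrays of a group has only a bound there, and its fold is given as "at least". Genes were named if called from a probe set with exactly 1 gene, and in each of 40 lists (777 entries, 702 measured) up to 4 members by smallest p. The members and lists were chosen with earlier results of these data known. On simulated data, 83% of 2-fold and 53% of 1.52-fold changes were recovered, with 7 false calls. The simulated noise was drawn independently for each probe set. Deviations that the probe sets of an array share were absent, so these shares need not hold for the real arrays. Alternatives were other fits, normalizations, filters and thresholds, a replicate block, and each array left out. The authors' own test was an ANOVA in Partek, whose model terms are not known here, so that the ANOVA among the alternatives need not match it.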

Additional observations from a re-analysis of the deposited data

Results flagged for a closer look

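The genotype difference after CFA differed from that in naive epidermis in 6 genes by the interaction test over 12 arrays (limma, adjusted p from 0.0075 to 0.045). The difference of differences was 2.31 for Nr4a1, 1.91 for Adh7, -4.31 for Cxcl10, -2.06 for Clec2d, 1.34 for Slc6a20a and -1.21 for Gpc3, on the log2 scale. For Nr4a1 the genotype difference lay in naive epidermis (log2 difference -2.17, adjusted p = 0.025) and was 0.14 after CFA (adjusted p = 0.84). For Clec2d it was 0.44 in naive epidermis (adjusted p = 0.47) and -1.62 after CFA (adjusted p = 0.015).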

How the results depend on the processing

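The number of probe sets called after CFA, 42, was 246 with the 12 epidermis arrays in 1 fit, 134 with array weights, 8 over all probe sets of the table and 0 by ordinary ANOVA of each probe set as computed here, and 108 at an adjusted p under 0.1 or 126 at 2-fold with an unadjusted p under 0.05. Leaving out 1 array gave 15 to 146. The 25 called with at least 2-fold became 91, 64, 8 and 0 under the first 4 of these, and 14 to 79 with 1 array left out. The 6 calls of the interaction became 15 with trend and robust moderation, and 2 to 87 with 1 array left out. The 36 interferon-stimulated genes lower at an unadjusted p under 0.05 were 20 by ANOVA and 35 to 39 with 1 array left out. Of the same genes, called were 0 at first, 23 in the 12-array fit, 13 with array weights, 1 with arrays centred on their medians, 1 with trend and robust moderation, and 0 to 16 with 1 array left out. The cause was not tested. Same-numbered control and mutant arrays correlated in their deviations by 0.00169, 0.0227 and 0.233, and differently numbered ones by -0.151 to 0.149. Deviations from the mean of so few arrays constrain one another, so these values cannot tell whether the numbers pair the arrays. With the replicate block there were 289 calls, 117 of at least 2-fold, 4 for the interaction, and 31 interferon-stimulated genes called. Among called genes, 401 of 584 recomputed values stayed called and 183 were no longer called, with 0 reversed in sign. The share of called probe sets with the same sign was 71.4% to 85.7% in naive epidermis and 57.1% to 69.0% in DRG with 1 array left out. It was 60.3% in naive epidermis and 77.8% in DRG over the 126 that pass by fold and unadjusted p. The alternative without 2 DRG arrays was chosen after seeing the data. Signal over background limits low genes, whose folds are bounds.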
